A study of Mus musculus with 4 samples.

Results

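The classical cadherins and the non-clustered protocadherins were examined in accessible chromatin of inhibitory neuron nuclei. Members were all protein-coding genes of the mouse annotation whose symbol was Cdh or Pcdh followed by a number, which gave 35 of 21755 protein-coding genes, namely 23 Cdh and 12 Pcdh genes. The clustered protocadherins, whose symbols carry a letter after Pcdh, were not included. Nuclei came from mice of the genotype Dlx6aCre;Sun1/sfGFP at postnatal day 30, in 2 libraries from cortex and 2 from hippocampus, and every library was sorted for nuclei positive for DAPI and GFP. In this genotype Cre recombinase is placed under a Dlx6a element active in forebrain inhibitory neurons, and recombined cells carry a GFP-tagged Sun1 protein in the nuclear envelope, so cells in which the Cre was never active were selected against. The question was whether accessibility of these adhesion genes differed between the brain regions and between kinds of interneurons.

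Classical cadherins are single-pass membrane proteins that bind their like on the neighbouring cell in the presence of calcium and hold the actin cytoskeleton through catenins. Type I members such as Cdh2 (N-cadherin) and type II members such as Cdh8 and Cdh11 differ in the pocket by which they bind. The delta protocadherins bind more weakly, and several of them recruit the WAVE complex, which drives actin branching. In the forebrain both families are known for the sorting of neurons, the growth of axons and the choice of synaptic partners.

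Accessibility was measured by single-nucleus ATAC-seq, in which a transposase cuts open chromatin and each insertion is a cut site. The libraries held 2355 and 4191 nuclei from cortex and 5576 and 3184 from hippocampus, with replicate 1 given first, and 32005984 to 117290059 cut sites in peaks. Cortex replicate 1 stood apart in depth, with a median of 47236 cut sites per nucleus against 7352, 12685.5 and 14917 in cortex replicate 2, hippocampus replicate 1 and hippocampus replicate 2, and values are given in this order throughout. Libraries shared 11 to 47 barcodes per pair, which was at most 1.12% of a library. All 7 pan-GABA markers had cut sites in every library (683 to 985 CPM summed over the list, CPM being cut sites scaled to a fixed library total). The summed level of 11 oligodendrocyte markers was 274 to 395 CPM, with 5 to 11 of them above 0. Nuclei that met a rule for the oligodendrocyte lineage (an excess over those markers and a deficit over the pan-GABA list) made up 5.35%, 1.17%, 7.01% and 9.77% of the libraries. Of the other lists, excitatory neuron markers summed to 40.0 to 68.7 CPM, with 2 to 5 of 6 above 0 and Neurod6 at 0 in all 4 libraries. Astrocyte markers summed to 116 to 156 CPM, with 3 to 4 of 5 above 0. Microglial markers summed to 201 to 265 CPM, with 3 to 4 of 5 above 0 and Aif1 at 0. Endothelial markers summed to 64.7 to 130 CPM, with 3 to 4 of 5 above 0 and Ly6c1 at 0. Markers of striatal projection neurons summed to 67.4 to 104 CPM, with at least 4 of 5 above 0.

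Some of the largest differences between interneuron kinds lay in single intronic regions, described below, and the reference sequence of 6 of them is shown. The 6 are a selection, and other regions with large differences, such as one in Cdh2, are not shown. A difference in a region did not always go with one in the whole gene, since Cdh4 and Cdh20 did not pass between classes as whole genes. Each run is the 300 bases centred on the stretch covered by peaks of most libraries, on the plus strand of GRCm38.p6, and no run overlapped an annotated exon. The runs lay at chr1:104838710-104839009 in Cdh20, chr8:119035262-119035561 and chr8:119082382-119082681 in Cdh13, chr2:179510528-179510827 in Cdh4, chr15:23052007-23052306 in Cdh18 and chr8:102715985-102716284 in Cdh11, and each is named by the distance of its region from the gene start. The motifs searched on both strands were TAATTA (a homeodomain core), AACAAT (Sox), AGGTCA (nuclear receptor half-site), TGANTCA (AP-1), CAGCTG (E-box) and GGGCGG (GC box), and matches are in capitals. Matches were found in only 2 of the runs, did not overlap each other, and are descriptions of letters rather than of binding. Among windows of the same length in all 46698 regions that held a peak of every library, 6.06% held TAATTA, 8.05% AACAAT, 12.1% AGGTCA, 13.1% TGANTCA, 32.1% CAGCTG and 23.6% GGGCGG.
Cdh20 at 70.4 kb: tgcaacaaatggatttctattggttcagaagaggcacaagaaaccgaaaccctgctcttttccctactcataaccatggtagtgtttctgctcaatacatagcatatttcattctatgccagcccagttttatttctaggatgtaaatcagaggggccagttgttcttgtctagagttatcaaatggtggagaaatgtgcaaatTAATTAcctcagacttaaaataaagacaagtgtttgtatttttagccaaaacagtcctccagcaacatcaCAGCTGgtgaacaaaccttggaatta
Cdh13 at 751.6 kb: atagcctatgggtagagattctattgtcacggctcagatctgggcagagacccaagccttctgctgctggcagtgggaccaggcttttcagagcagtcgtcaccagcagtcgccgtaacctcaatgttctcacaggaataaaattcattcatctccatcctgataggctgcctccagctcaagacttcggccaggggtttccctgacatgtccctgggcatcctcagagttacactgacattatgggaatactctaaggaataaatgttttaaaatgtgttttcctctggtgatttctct
Cdh4 at 68.4 kb: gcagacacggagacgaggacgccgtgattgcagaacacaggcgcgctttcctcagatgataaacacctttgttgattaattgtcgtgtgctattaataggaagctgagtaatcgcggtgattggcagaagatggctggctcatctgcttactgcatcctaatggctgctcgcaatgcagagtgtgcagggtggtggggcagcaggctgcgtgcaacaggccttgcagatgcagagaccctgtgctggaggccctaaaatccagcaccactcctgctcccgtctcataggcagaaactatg
Cdh13 at 798.6 kb: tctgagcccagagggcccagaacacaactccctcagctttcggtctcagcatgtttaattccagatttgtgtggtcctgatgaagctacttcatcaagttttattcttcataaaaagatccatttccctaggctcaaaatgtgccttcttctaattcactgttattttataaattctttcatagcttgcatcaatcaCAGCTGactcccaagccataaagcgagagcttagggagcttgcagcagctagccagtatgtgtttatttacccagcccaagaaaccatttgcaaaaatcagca
Cdh18 at 503.2 kb: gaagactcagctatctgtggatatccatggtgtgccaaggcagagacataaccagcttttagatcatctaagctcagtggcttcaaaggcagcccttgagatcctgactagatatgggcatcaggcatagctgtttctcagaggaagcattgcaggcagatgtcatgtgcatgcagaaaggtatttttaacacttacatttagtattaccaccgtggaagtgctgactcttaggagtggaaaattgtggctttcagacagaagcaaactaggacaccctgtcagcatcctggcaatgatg
Cdh11 at 69.4 kb: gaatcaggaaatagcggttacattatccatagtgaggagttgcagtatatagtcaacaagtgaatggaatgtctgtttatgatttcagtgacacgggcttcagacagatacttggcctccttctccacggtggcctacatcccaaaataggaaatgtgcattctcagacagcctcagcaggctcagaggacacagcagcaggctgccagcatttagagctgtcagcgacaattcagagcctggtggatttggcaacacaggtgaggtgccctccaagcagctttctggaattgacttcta

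The level of a gene was the number of cut sites in the library's own peaks lying over the gene or within 2 kb before its start, in CPM of all cut sites in peaks. Together the 35 genes held 0.329%, 0.270%, 0.303% and 0.282% of the cut sites. A peak was present in at least 1 library for 34 of the 35, in every library for 32, and over the annotated start in every library for 21. Cdh19, a type II cadherin known from Schwann cell precursors, had no peak in any library. Cdh3 (P-cadherin) was listed at 0 in cortex replicate 2 and hippocampus replicate 2, and Cdh17 (liver-intestine cadherin) at 0 in cortex replicate 2.

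Compared per kb of gene window, the highest levels belonged to 3 genes. Pcdh8, a delta-2 protocadherin whose uptake follows neuronal activity, had 10.2, 7.65, 5.82 and 9.35 CPM per kb (8.25 ± 1.93, SD, n = 4). Pcdh1, a delta-1 protocadherin, reached 4.98 ± 0.53 CPM per kb, and the type II cadherin Cdh24 reached 4.76 ± 0.68, although 93.3% to 100% of the Cdh24 window signal lay in peaks that also fell in the window of another protein-coding gene. Pcdh10 followed at 1.75 ± 0.40 CPM per kb. The lowest genes with a peak were Cdh3 (0.01 ± 0.01), the X-linked Pcdh11x (0.02 ± 0.02) and Cdh12 (0.06 ± 0.01 CPM per kb). The order was loose, since 30 of the 33 neighbouring pairs with a peak had ranges over libraries that overlapped. The 3 pairs that did not overlap were Pcdh8 and Pcdh1, Cdh24 and Pcdh10, and Cdh12 and Pcdh11x.

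**Figure D1:**
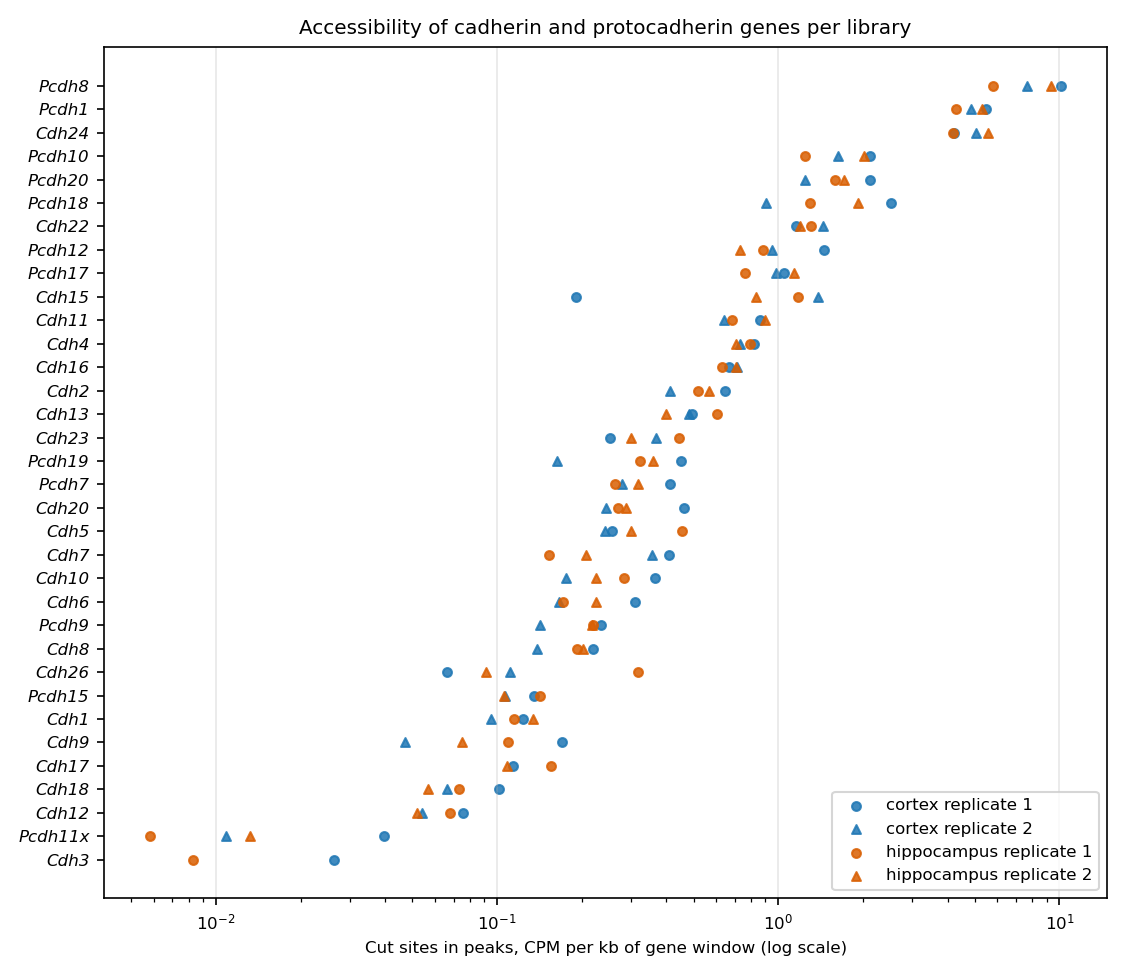
Level of each member in the 4 libraries, in CPM per kb of gene window on a log axis. Each point is a library and genes are ordered by their mean, from Pcdh8 (8.25 CPM per kb) down to Cdh3 (0.01), and values of 0 are not drawn.

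Without scaling to length, the long genes held the most signal. Cdh13 (T-cadherin, a member anchored by lipid instead of a membrane span) had 514, 502, 629 and 414 CPM, and Cdh4 (R-cadherin) had 375, 335, 365 and 324 CPM. Shared windows also touched Cdh15, whose peaks all overlapped the window of Gm20388, Pcdh12 (6.13% to 53.8% of its cut sites), Cdh23 (9.16% to 15.4%) and Cdh12 (0% to 14.0%). The signal of the other members was not shared with another protein-coding gene.

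Accessibility of these genes was first compared between interneurons of different origin. Nuclei were placed in an MGE class or a CGE class (medial or caudal ganglionic eminence) by an excess of cut sites over a list of marker genes such as Lhx6 and Sox6 or Adarb2 and Prox1. None of the 35 genes is on a list. This comparison was added after the data had been seen, because gates on single marker genes (below) held few nuclei. The MGE class held 368, 161, 311 and 192 nuclei and the CGE class 323, 157, 359 and 185. By this choice the MGE list was higher in the MGE class (937 to 1152 against 215 to 339 CPM) and the CGE list in the CGE class (535 to 928 against 100 to 214 CPM). Lists that did not define the classes had overlapping ranges. Pvalb-type markers were at 393 to 513 CPM in the MGE class and 307 to 398 CPM in the CGE class. Sst-type markers were at 253 to 365 and 219 to 291 CPM, and both lists were higher in the MGE class in every library. Vip-type markers were at 87.2 to 115 and 92.4 to 148 CPM, higher in the CGE class except in cortex replicate 2. Lamp5-type markers were at 231 to 299 and 218 to 389 CPM, higher in the CGE class in cortex but lower in hippocampus. Median depth per nucleus was higher in the MGE class in every library (53001.5 against 42238, 8570 against 6869, 14770 against 13643 and 17201 against 15972 cut sites), and its part in the results was not tested. In sums of nuclei a smaller share of open nuclei and less open chromatin per nucleus cannot be told apart.

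Of the 33 members that passed the filter on low counts, 8 differed between the classes in edgeR's quasi-likelihood test with library as a block and an adjusted p under 0.05, against 8.57% of the 16325 genes tested. The 8 were 7 genes higher in the MGE class (4.63% of all genes were) and 1 gene lower (3.94%). Cdh3 and Cdh19 did not pass the filter. The median log2 fold change was 0.03 over the 33 members and -0.0043 over all genes. At an unadjusted p under 0.05 there were 15 of the 33 members and 3323 of all genes.

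Type II cadherins that rose in the MGE class were Cdh18, Cdh7 and Cdh12, of 12 tested, and none fell. Cdh18 had TMM-normalised levels of 126, 64.4, 96.1 and 73.0 CPM in MGE-class nuclei and 56.5, 30.2, 63.4 and 47.1 CPM in CGE-class nuclei. It was higher in 4 of 4 libraries and the ranges of the classes did not overlap, although the lowest MGE value and the highest CGE value lay close together. The log2 fold change was 0.86 ± 0.12 (SE, edgeR, adjusted p = 4.34e-05). This was the only member of the 8 whose classes did not overlap.

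Cdh7 (type II) had 96.4, 63.7, 37.4 and 42.0 CPM in the MGE class and 47.5, 43.9, 25.8 and 33.0 CPM in the CGE class, higher in 4 of 4 libraries (log2 fold change 0.67 ± 0.13, SE, edgeR, adjusted p = 0.00154). The library level set the range, so that the hippocampal MGE values lay below the cortical CGE values. The change was 0.46 without cortex replicate 1 and no longer passed. Cdh12 had 99.1, 70.4, 118 and 84.7 CPM in the MGE class against 97.2, 62.2, 62.9 and 46.3 CPM (0.49 ± 0.13, SE, edgeR, adjusted p = 0.0304). Its class values were close in cortex and apart in hippocampus. The change was 0.07 in the cortex libraries alone and 0.88 in the hippocampus libraries alone, and the call was lost without cortex replicate 2 (0.56), hippocampus replicate 1 (0.33) or hippocampus replicate 2 (0.37). Counted only within 2 kb of the gene start, Cdh12 pointed the other way (-0.27).

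**Figure D2:**
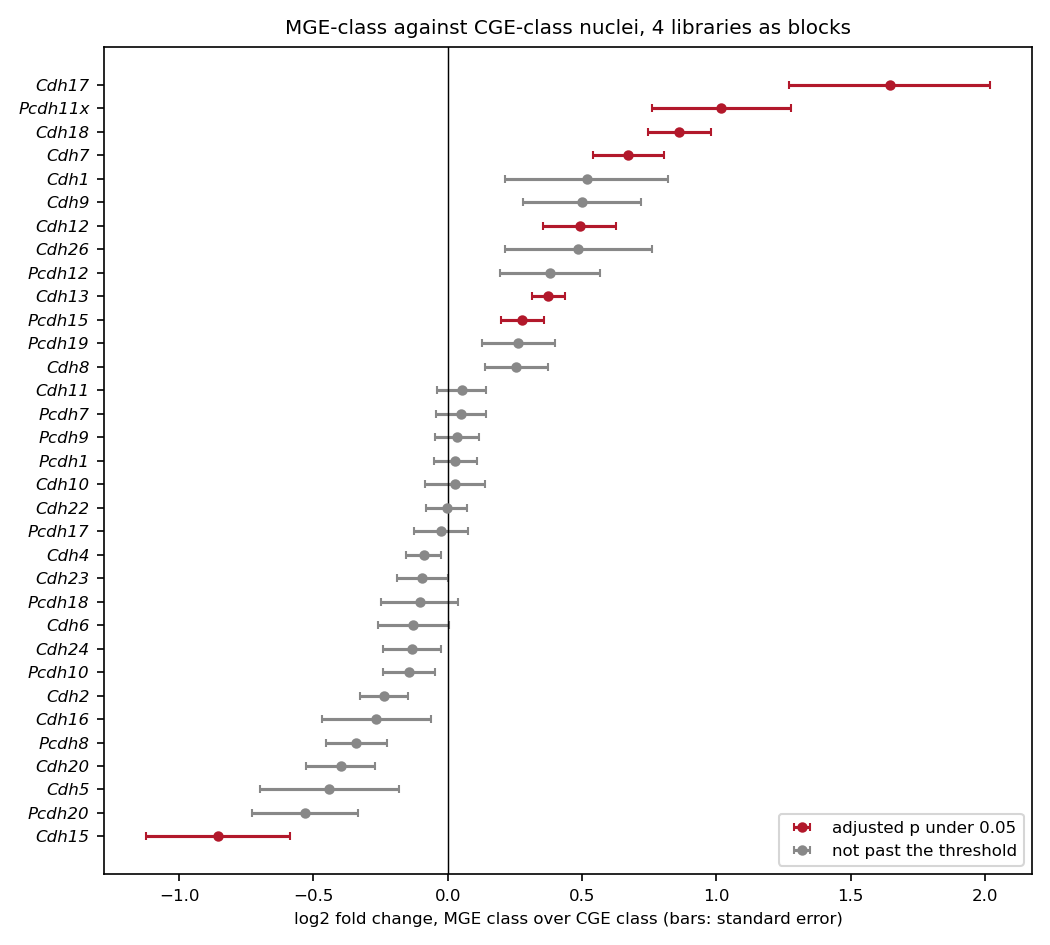
Log2 fold change of each member between MGE-class and CGE-class nuclei, with bars for the standard error. Members past an adjusted p of 0.05 (edgeR, 4 libraries as blocks) are coloured, from Cdh17 at 1.64 down to Cdh15 at -0.85.

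Among the cadherins outside types I and II, 2 of 5 rose in the MGE class. Cdh13 had 649, 610, 854 and 523 CPM in the MGE class and 478, 451, 712 and 406 CPM in the CGE class, higher in 4 of 4 libraries. The log2 fold change was 0.37 ± 0.06 (SE, edgeR, adjusted p = 0.000265), and it passed whichever library was left out. Cdh17 had 8.85, 0, 13.5 and 14.3 CPM in the MGE class and 2.07, 0, 6.39 and 3.04 CPM in the CGE class (1.64 ± 0.37, SE, edgeR, adjusted p = 0.00382). Its level was low and cortex replicate 2 held none. It was 1.36 without cortex replicate 1 and did not pass.

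The only change in the other direction was in Cdh15 (M-cadherin, known from muscle), a type I cadherin. Its levels were 2.95, 22.5, 25.5 and 17.0 CPM in the MGE class and 13.9, 29.3, 32.7 and 23.9 CPM in the CGE class, lower in 4 of 4 libraries (log2 fold change -0.85 ± 0.27, SE, edgeR, adjusted p = 0.0387). Its signal cannot be told apart from that of Gm20388. The call did not pass without cortex replicate 1 (-0.40), cortex replicate 2 (-0.99) or hippocampus replicate 2 (-0.99), nor in DESeq2 (-0.88). Of the other type I genes tested, Cdh1, Cdh2 and Cdh4, none passed as a whole gene.

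Of the protocadherins, Pcdh11x and Pcdh15 rose. Pcdh11x, a delta-1 gene, had 32.6, 12.7, 5.20 and 11.0 CPM in the MGE class against 19.0, 3.66, 1.72 and 5.31 CPM (log2 fold change 1.02 ± 0.26, SE, edgeR, adjusted p = 0.0105). It was higher in 4 of 4 libraries, and without cortex replicate 1 it was 1.21 and did not pass. Pcdh15, a component of hair cell tip links, had 260, 181, 289 and 177 CPM against 227, 118, 237 and 160 CPM (0.28 ± 0.08, SE, edgeR, adjusted p = 0.0324). It was higher in 4 of 4 libraries, but the change fell short of the threshold whichever library was left out (0.31, 0.21, 0.28 and 0.32 in the order above). None of the 5 delta-2 genes passed. Pcdh8 had 73.1, 42.7, 41.3 and 68.7 CPM in the MGE class and 93.7, 72.3, 53.3 and 71.4 CPM in the CGE class.

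**Figure D3:**
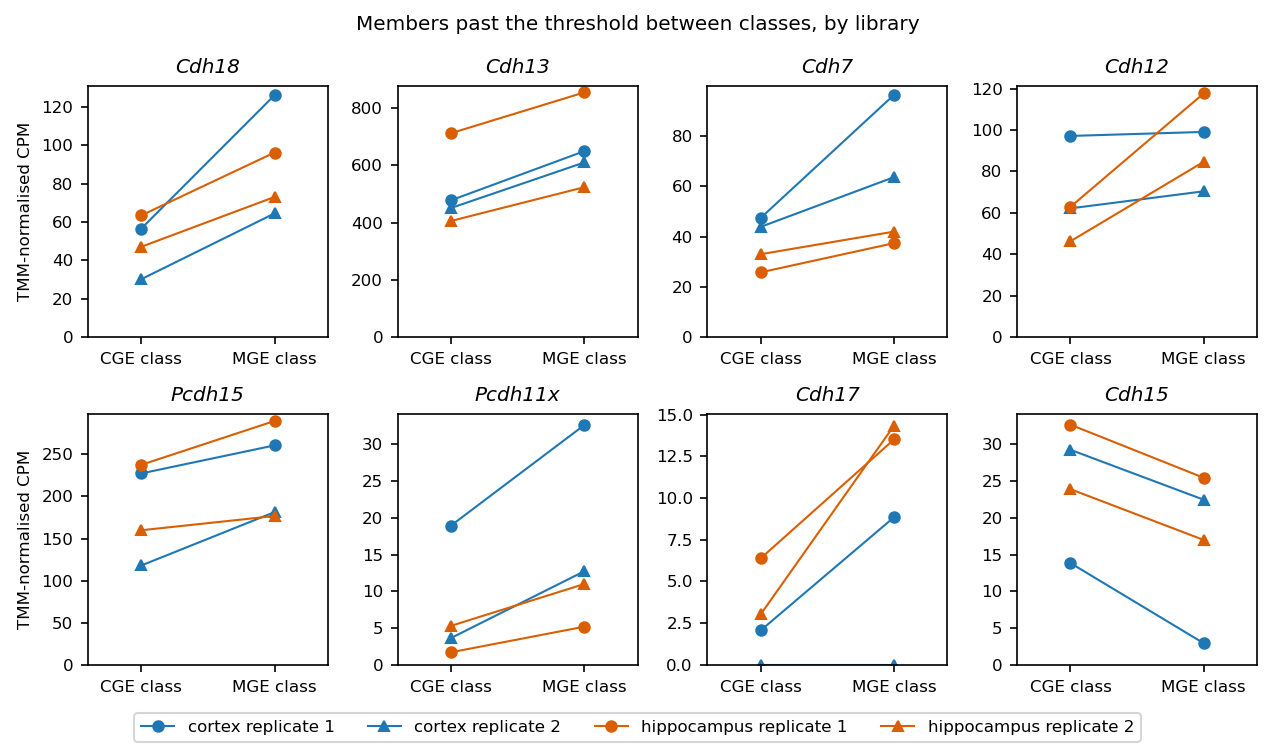
TMM-normalised CPM of the 8 members past the threshold between classes, with 1 line per library joining its CGE-class and MGE-class nuclei. Lines rise in 4 of 4 libraries for Cdh18, Cdh13, Cdh7, Pcdh11x, Cdh12 and Pcdh15, and fall in 4 of 4 for Cdh15, while Cdh17 was at 0 in both classes of cortex replicate 2.

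The difference between classes was itself compared between hippocampus and cortex. No member passed, against 0.0796% (13) of all genes, and 5 members and 909 genes had an unadjusted p under 0.05. The nearest was Cdh12 at 0.82 ± 0.21 (edgeR, adjusted p = 0.144). With cortex replicate 2 left out, cortex was a single library assumed to vary as the hippocampal ones do, and 0.748% of all genes passed. Among them were 3 members, namely Cdh12 (0.86), Cdh15 (1.72) and Cdh5 (-1.64, VE-cadherin of endothelial junctions).

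Individual regions were compared next. Of 141 regions in these genes that held a peak of every library, 140 were tested between classes and 31 passed, against 19.7% of all 46643 regions. Of the 31, 19 were higher in the MGE class (10.3% of all regions were) and 12 lower (9.41%). Introns held 23 of the 31 (of 98 tested), gene starts 4 (of 24), UTRs 3 (of 13), other exons 1 (of 2) and upstream windows none (of 3). All 31 kept their direction when each library was left out in turn, and 13 passed each time. Leaving out cortex replicate 1 lowered the number that passed from 31 to 18, and the share over all regions to 11.5%.

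Cdh13, with 33 regions tested, had 10 that rose and 2 that fell. The region 798.6 kb into the gene (chr8:119081636-119083053) had 31.4, 39.3, 30.5 and 23.0 CPM in MGE-class nuclei and 6.62, 9.83, 9.24 and 8.10 CPM in CGE-class nuclei. The classes did not overlap (log2 fold change 1.85 ± 0.24, SE, edgeR, adjusted p = 5.93e-06). The run printed above for it held 1 CAGCTG. Nearer to the start, the region at 751.6 kb (chr8:119035059-119035625) had 1.45, 0.786, 3.14 and 2.48 CPM in the MGE class and 13.7, 1.97, 14.2 and 12.8 CPM in the CGE class (-2.38 ± 0.42, SE, edgeR, adjusted p = 0.0001). It was lower in 4 of 4 libraries, but the classes overlapped, since the CGE value of cortex replicate 2 lay below 2 of the MGE values. Nearby intronic regions of this gene thus moved in opposite directions, and both passed whichever library was left out.

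Cdh4 did not pass as a whole gene, yet 4 of its 23 tested regions fell in the MGE class and none rose. The region at 68.4 kb (chr2:179510301-179511272) had 3.69, 3.14, 2.28 and 8.85 CPM in the MGE class and 22.7, 23.6, 12.7 and 16.2 CPM in the CGE class (-2.05 ± 0.35, SE, edgeR, adjusted p = 0.000106). The classes did not overlap. Its run in Cdh4 held none of the 6 motifs.

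Cdh20, a type II cadherin, also did not pass as a whole gene, with 113, 38.2, 85.5 and 58.7 CPM in the MGE class and 167, 75.9, 75.0 and 81.2 CPM in the CGE class. Of its 3 regions, the one at 70.4 kb (chr1:104838159-104839621) had 6.90, 4.72, 12.8 and 5.67 CPM in the MGE class and 55.1, 40.3, 27.1 and 24.3 CPM in the CGE class. The lowest CGE value was well above the highest MGE value (-2.21 ± 0.29, SE, edgeR, adjusted p = 1.43e-05). The run for this region held 1 TAATTA and 1 CAGCTG.

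Cdh18 had 3 of 5 regions that rose. The region at 503.2 kb (chr15:23051830-23052549) had 17.6, 9.43, 9.12 and 2.12 CPM in the MGE class and 2.09, 7.86, 0.578 and 0 CPM in the CGE class (2.29 ± 0.54, SE, edgeR, adjusted p = 0.00132). It was higher in 4 of 4 libraries, but the classes overlapped and cortex replicate 2 showed little difference. The remaining regions that passed were 2 in Cdh7 and 1 each in Cdh11, Pcdh1, Pcdh9 and Pcdh11x, all higher in the MGE class, and 2 in Cdh2 and 1 each in Cdh15, Cdh22 and Pcdh8, all lower.

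**Figure D4:**
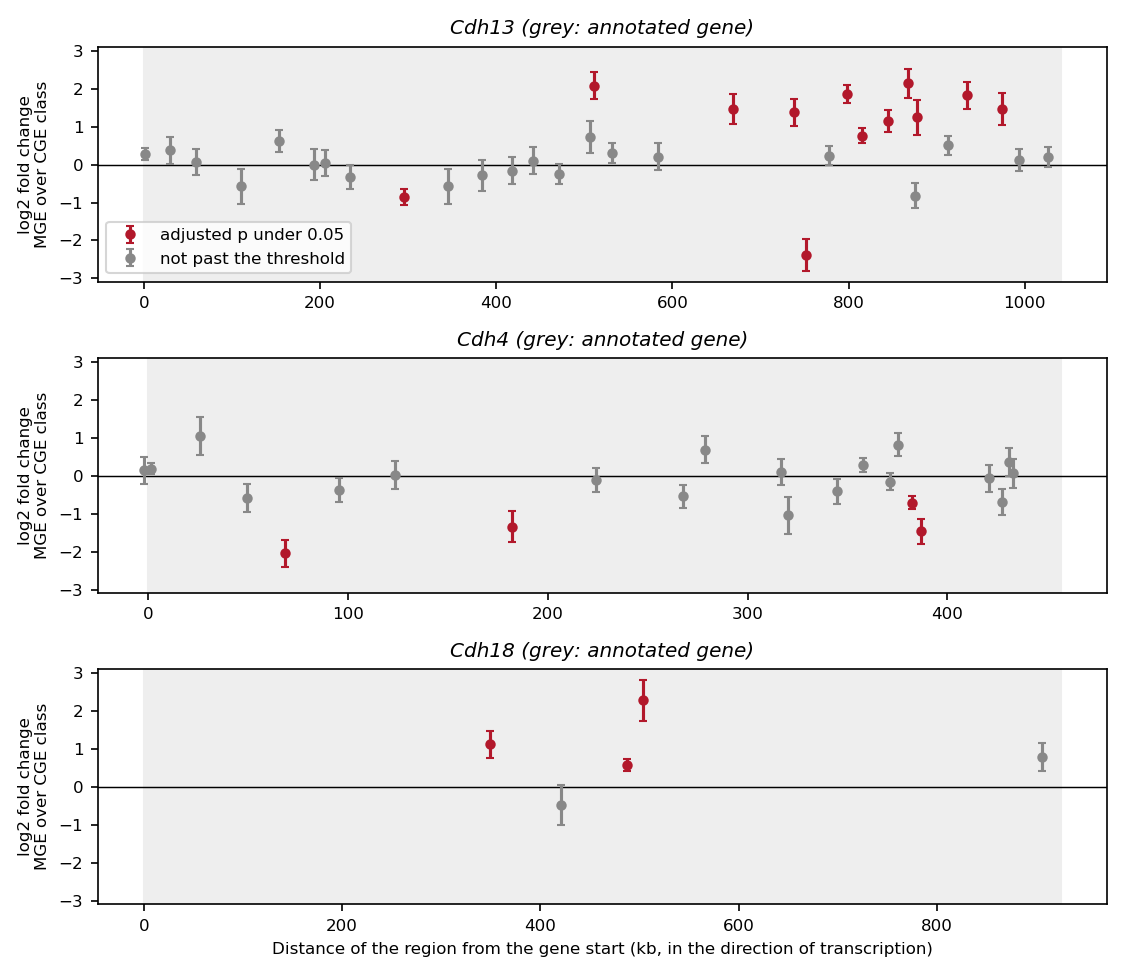
Log2 fold change between classes of each common region along selected genes, by distance from the gene start in kb, with bars for the standard error. Coloured points passed an adjusted p of 0.05, and in Cdh13 10 of the 33 regions tested lay significantly above 0 and 2 below.

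Nuclei were also gated on the cut sites in 1 marker gene each, Pvalb, Sst, Vip or Lamp5, which mark major interneuron classes. The Pvalb gate held 194, 83, 185 and 81 nuclei, the Sst gate 148, 107, 133 and 92, and the Lamp5 gate 91, 113, 145 and 85. As a share of the library the Pvalb gate was 8.24%, 1.98%, 3.32% and 2.54%. The Sst gate was 6.28%, 2.55%, 2.39% and 2.89%, and the Lamp5 gate 3.86%, 2.70%, 2.60% and 2.67%. If counts follow a Poisson distribution, a tail of 0.01 lets a share of up to 0.01 of nuclei enter a gate or class by chance. Whether they do was not tested, and a wider spread would let in more. Part of each gate or class may thus be other cells, and this part may be large where its share of the library is small. The Vip gate held 74 nuclei in cortex replicate 1, 16 in cortex replicate 2 and 0 in both hippocampal libraries. With a minimum of 50 it was thus represented by 1 library only. The hippocampal libraries held 0 at a tail of 0.05 as well. Peaks were called per library, so these values of 0 are not a measure of how many Vip cells hippocampus held. Independent markers of the Pvalb type summed to 401 to 663 CPM in the Pvalb gate, 282 to 340 CPM in the Sst gate and 354 to 454 CPM in the Lamp5 gate. Those of the Sst type summed to 280 to 413 CPM in the Sst gate against 186 to 276 and 203 to 290 CPM in the Pvalb and Lamp5 gates. Markers of the Lamp5 type overlapped, with 259 to 368 CPM in the Lamp5 gate, 204 to 302 CPM in the Pvalb gate and 223 to 318 CPM in the Sst gate. In cortex replicate 2 the Lamp5 gate was the lowest of these gates (277 CPM against 300 in the Pvalb gate and 278 in the Sst gate). It was the highest of them in every other library. Each gate was compared with the mean of the others, so these contrasts share nuclei.

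In the Pvalb gate 3 of 33 members passed, against 5.21% of 16151 genes. Cdh18 had 129, 102, 119 and 64.3 CPM in the Pvalb gate, 126, 60.1, 95.7 and 53.6 CPM in the Sst gate, 92.6, 60.7, 59.6 and 52.0 CPM in the Lamp5 gate and 70.7 CPM in the Vip gate. It was highest in the Pvalb gate in 4 of 4 libraries (log2 fold change 0.63 ± 0.12, SE, edgeR, adjusted p = 0.00022), and without cortex replicate 1 it was 0.55 and did not pass. Cdh17 had 11.6, 0, 14.7 and 7.33 CPM in the Pvalb gate and at most 10.3 CPM in any other sum (1.18 ± 0.42, SE, edgeR, adjusted p = 0.0427). Its call was lost without cortex replicate 1 (0.67), hippocampus replicate 1 (1.18) or hippocampus replicate 2 (1.32).

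Pcdh8 fell in the Pvalb gate, and rose in the Vip gate of the 1 library that had it. It had 70.9, 35.5, 42.1 and 52.1 CPM in the Pvalb gate, 61.4, 32.4, 56.1 and 57.3 CPM in the Sst gate, 79.8, 47.7, 51.7 and 85.5 CPM in the Lamp5 gate and 123 CPM in the Vip gate. The Pvalb contrast was -0.44 ± 0.13 (SE, edgeR, adjusted p = 0.0378), and the Vip gate entered it as a comparator. Without the Vip gate it was -0.20 and did not pass, and the same was true without cortex replicate 1 (-0.34), hippocampus replicate 1 (-0.39) or hippocampus replicate 2 (-0.38). The gene has a single common region, which covers its start, so the bases just upstream of that start in RefSeq (minus strand, chr14:79771313-79771562, GRCm38.p6) are shown because the region that held its signal spans this position. None of the 6 motifs was found in these 250 bases, while of 32851 RefSeq promoters 4.84% held TAATTA, 9.42% AACAAT, 14.0% AGGTCA, 6.75% TGANTCA, 13.0% CAGCTG and 32.7% GGGCGG.
Pcdh8 promoter: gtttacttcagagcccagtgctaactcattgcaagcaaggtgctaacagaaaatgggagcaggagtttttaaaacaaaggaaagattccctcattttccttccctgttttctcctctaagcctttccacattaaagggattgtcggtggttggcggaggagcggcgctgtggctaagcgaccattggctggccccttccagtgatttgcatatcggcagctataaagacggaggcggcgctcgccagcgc

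In the Sst gate 3 of 33 members passed, against 6.04% of all genes. Cdh13 rose, with 708, 603, 819 and 533 CPM in the Sst gate, 554, 523, 858 and 441 CPM in the Pvalb gate, 541, 466, 698 and 379 CPM in the Lamp5 gate and 540 CPM in the Vip gate. It was highest in the Sst gate in every library but hippocampus replicate 1 (log2 fold change 0.30 ± 0.07, SE, edgeR, adjusted p = 0.00264). The change was 0.25 and did not pass when cortex replicate 1 was left out.

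Cdh20 and Cdh12 fell in the Sst gate. Cdh20 had 92.8, 48.1, 62.2 and 50.7 CPM there, 129, 45.4, 88.5 and 73.3 CPM in the Pvalb gate, 132, 61.8, 92.5 and 62.3 CPM in the Lamp5 gate and 147 CPM in the Vip gate (-0.50 ± 0.12, SE, edgeR, adjusted p = 0.00297). It was lowest in the Sst gate in every library but cortex replicate 2, and without cortex replicate 1 it was -0.39 and did not pass. Cdh12 had 94.3, 34.9, 82.7 and 53.6 CPM in the Sst gate and 113, 72.4, 134 and 96.9 CPM in the Pvalb gate, with 89.9, 62.9, 104 and 62.3 CPM in the Lamp5 gate and 125 CPM in the Vip gate (-0.46 ± 0.12, SE, edgeR, adjusted p = 0.00682). It was above the Sst value in the Pvalb gate of every library, and without hippocampus replicate 1 the change was -0.44 and did not pass.

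The Vip contrast, with 4 of 33 members against 3.61% of all genes, rested on 74 nuclei of 1 library, whose spread was assumed to be like that of the other sums. Pcdh20 was at 43.7 CPM in that gate and at 5.68 to 22.0 CPM in all other sums (log2 fold change 1.43 ± 0.36, SE, edgeR, adjusted p = 0.00691). Pcdh8 gave 0.79 ± 0.20 (adjusted p = 0.00809) and Cdh18 -0.69 ± 0.20 (adjusted p = 0.0295) in the same edgeR fit. Cdh15 gave 1.54 ± 0.50 (edgeR, adjusted p = 0.0298), from 11.9 CPM against 2.57 to 6.42 CPM in the other gates of the same library, but the other libraries had 15.9 to 37.6 CPM in every gate. Without hippocampus replicate 1 Cdh15 was 1.55 and did not pass, and with DESeq2 none of the 4 passed (1.72% of all genes did).

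In the Lamp5 gate none of the 33 members passed in edgeR, against 0.31% (50) of all genes, and 3 members had an unadjusted p under 0.05. The smallest p belonged to Pcdh7, a delta-1 gene, with 156, 119, 121 and 107 CPM in the Lamp5 gate and 210, 131, 152 and 177 CPM in the Pvalb gate (-0.32, edgeR, adjusted p = 0.16). In the upward direction it belonged to Cdh22, with 177, 180, 239 and 208 CPM in the Lamp5 gate (0.16, edgeR, adjusted p = 0.714). DESeq2 called none either.

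Leaving the Vip gate out, which was decided after seeing that 1 library held it, changed which members passed. In the Pvalb gate 4.38% of 15703 genes passed, and the members were Cdh12 (0.48, edgeR, adjusted p = 0.00395), Cdh18 (0.44, adjusted p = 0.00966) and Cdh22 (-0.29, adjusted p = 0.0364). In the Sst gate 4.73% passed, and the members were the same 3 as before, Cdh13 (0.28), Cdh20 (-0.44) and Cdh12 (-0.40). In the Lamp5 gate 1.35% passed, and the members were Cdh13 (-0.27, edgeR, adjusted p = 0.0143), Cdh18 (-0.49, adjusted p = 0.0154) and Pcdh7 (-0.35, adjusted p = 0.028). Cdh18 was therefore higher in the Pvalb gate and lower in the Lamp5 gate, 2 contrasts that share their sums.

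**Figure D5:**
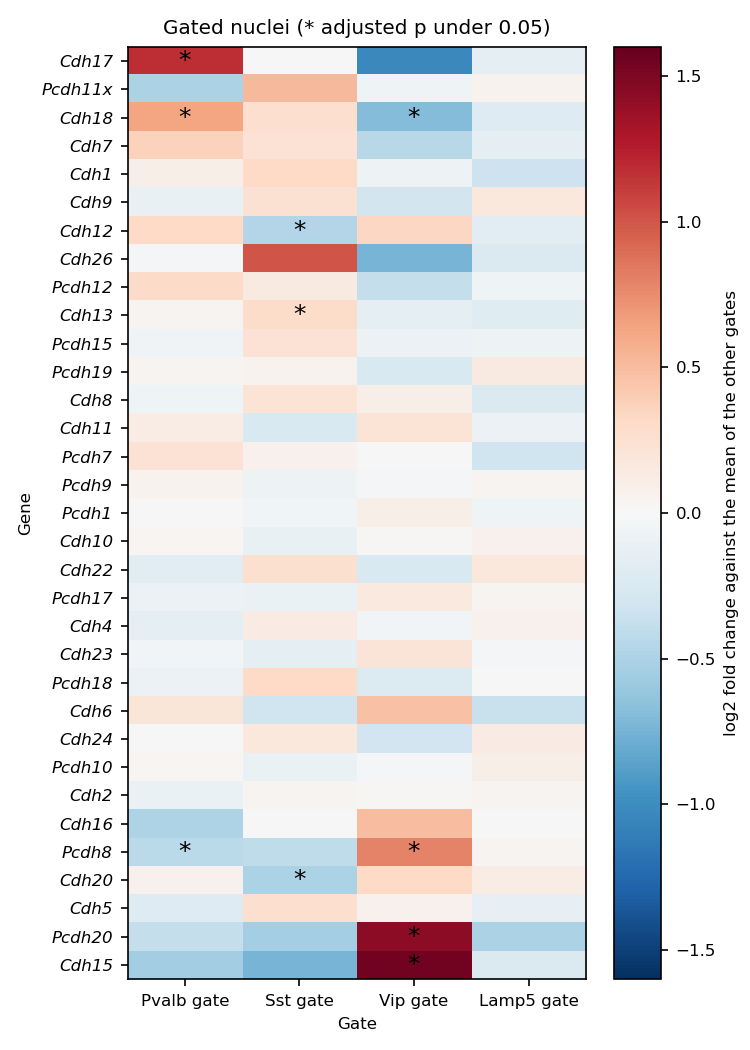
Log2 fold change of each member in each gate against the mean of the other gates, as colours, with an asterisk where the edgeR adjusted p was under 0.05. The Pvalb and Sst columns hold 3 asterisks each and the Vip column 4, from 1 library, while the Lamp5 column holds none.

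With the Pvalb and Sst gates set against the Vip and Lamp5 gates, 4 members passed, against 4.89% of all genes. These were Cdh18 (0.67, edgeR, adjusted p = 0.000136), Cdh13 (0.26, adjusted p = 0.027), Pcdh8 (-0.63, adjusted p = 0.000722) and Cdh15 (-0.98, adjusted p = 0.019). Without cortex replicate 1 none passed (0.49, 0.30, -0.39 and -0.05, with 0.666% of all genes called), and without hippocampus replicate 1 Cdh13 (0.26) and Cdh15 (-1.10) did not. Without hippocampus replicate 2, Cdh13 was 0.24 and did not pass, while Pcdh20 did (-0.79). Leaving out the Vip gate, which 1 library held, Pcdh8 was -0.35 and Cdh15 -0.32 and neither passed. Cdh18 (0.49), Cdh13 (0.27) and Pcdh7 (0.35) did, against 1.35% of all genes. Without that gate the contrast is the Lamp5 contrast above with its sign turned, so these calls are the same result. Gates and classes shared nuclei to different degrees. Of the nuclei in the Pvalb gate 6.02% to 25.8% were also in 1 of the classes, of those in the Sst gate 6.54% to 19.6% and of those in the Lamp5 gate 7.96% to 34.1%. In the Vip gate of cortex replicate 1, 42 of the 74 nuclei were (56.8%), 39 of them in the CGE class. The Lamp5 gate was mixed, with 11, 4, 11 and 4 nuclei in the MGE class and 20, 5, 9 and 4 in the CGE class. The Pvalb gate had 49, 4, 20 and 10 in the MGE class and 1, 1, 6 and 3 in the CGE class. The Sst gate had 24, 6, 10 and 6 against 5, 1, 1 and 1. For no gene did the difference between gates pass the edgeR test between hippocampus and cortex (0.0% of 16151), and 2 members and 667 genes had an unadjusted p under 0.05.

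Between gates, 139 regions of these genes were tested. In the Pvalb gate 13 passed (8.52% of 46205 regions did), in the Sst gate 24 (14.8%), in the Vip gate 15 (8.02%) and in the Lamp5 gate 3 (0.87%). Without cortex replicate 1 the numbers were 0 in the Pvalb gate (1.51% of all regions) and 2 in the Sst gate (4.33%). In the Lamp5 gate 1 region passed without hippocampus replicate 1 (0.221%) and none without hippocampus replicate 2 (0.367%).

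In Cdh11, a type II cadherin, the region at 69.4 kb (chr8:102715760-102716658), whose run is printed above, had 2.57, 2.49, 7.79 and 4.10 CPM in the Sst gate. It had 22.1, 10.4, 17.2 and 19.3 CPM in the Pvalb gate, 15.9, 19.5, 18.4 and 36.4 CPM in the Lamp5 gate and 9.72 CPM in the Vip gate. The Sst gate lay below all others in every library (log2 fold change -1.86 ± 0.40, SE, edgeR, adjusted p = 8.65e-05) and passed whichever library was left out. The Lamp5 contrast of this region was 1.16 ± 0.33 (edgeR, adjusted p = 0.0436), and did not pass without cortex replicate 2 (1.07), hippocampus replicate 1 (1.36) or hippocampus replicate 2 (0.95).

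Higher in the Sst gate was a region 32.3 kb into Cdh22 (chr2:165201546-165203478), with 39.2, 68.5, 46.7 and 40.2 CPM against 13.1, 28.3, 31.6 and 27.1 CPM in the Pvalb gate, 18.9, 48.2, 41.0 and 39.9 CPM in the Lamp5 gate and 11.0 CPM in the Vip gate (0.98 ± 0.20, SE, edgeR, adjusted p = 0.000131). The Sst value was the highest in every library, though by little over the Lamp5 value in hippocampus replicate 2. A region 934.9 kb into Cdh13 had 17.0, 16.2, 21.8 and 14.8 CPM in the Sst gate and 1.15 to 13.5 CPM in all others (1.67 ± 0.40, SE, edgeR, adjusted p = 0.000355). Around the start of Cdh20 the Sst gate had 26.7, 24.9, 18.7 and 28.7 CPM and the other gates 25.3 to 67.6 CPM (-0.72 ± 0.20, SE, edgeR, adjusted p = 0.00517). Without cortex replicate 1 these were 0.46, 1.01 and -0.54 and did not pass.

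The Pvalb gate was low in the Cdh20 region at 70.4 kb, with 6.62, 10.4, 8.36 and 15.8 CPM, against 9.81, 17.4, 20.2 and 11.5 CPM in the Sst gate, 26.2, 29.9, 24.7 and 14.2 CPM in the Lamp5 gate and 49.9 CPM in the Vip gate (-1.45 ± 0.30, SE, edgeR, adjusted p = 0.000451). In hippocampus replicate 2, however, it was the highest of the gates. A region 875.7 kb into Cdh13 had 1.92, 1.49, 6.03 and 3.50 CPM in the Pvalb gate and 2.49 to 21.0 CPM in the others (-1.91 ± 0.44, SE, edgeR, adjusted p = 0.000619). Higher in the Pvalb gate were the Cdh18 region at 503.2 kb (1.38, edgeR, adjusted p = 0.00674), with 21.7, 34.3, 8.82 and 1.75 CPM, and the Cdh13 region at 798.6 kb (0.92, edgeR, adjusted p = 0.0122), with 32.9, 17.9, 34.8 and 15.8 CPM. Without cortex replicate 1 these 4 were -0.66, -1.15, 1.03 and 0.24 and did not pass, and without hippocampus replicate 1 the last was 0.74 and did not pass.

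In the Lamp5 gate a region 954 kb into Pcdh15 (chr10:74052969-74053702) had 14.2, 35.6, 35.3 and 24.8 CPM, against 4.86 to 17.9 CPM in the other gates. The Lamp5 value was the highest in every library (1.37 ± 0.33, SE, edgeR, adjusted p = 0.0115), although in cortex replicate 1 the Pvalb gate was close, at 13.0 CPM. Without hippocampus replicate 1 it was 1.22, and without hippocampus replicate 2 1.29, and neither passed. In the Vip gate of cortex replicate 1, regions in Cdh13 at 295.4 kb (53.0 CPM against 9.50 to 22.7 CPM in the other gates of that library) and in Cdh2 at 95.7 kb (25.2 CPM against 2.03 to 4.66 CPM) were higher. Regions in Cdh22 at 81.8 kb (10.6 CPM against 31.9 to 36.2 CPM) and Pcdh9 at 156 kb (3.09 CPM against 12.3 to 23.2 CPM) were lower there. These 4 changes (1.71, 2.65, -1.63 and -2.10 on the log2 scale) passed the edgeR threshold and rested on that library.

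Hippocampus and cortex were compared over whole libraries. Of 34 members tested none passed in edgeR, against 0.00613% (1) of 16319 genes. At an unadjusted p under 0.05 there were 1 member and 357 genes, and DESeq2 called 1 member (1.74% of all genes). The median log2 fold change was 0.03 over the members and -0.01 over all genes.

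That gene was Cdh7, with 65.5 and 57.0 CPM in cortex and 24.5 and 33.1 CPM in hippocampus. The brain regions did not overlap (log2 fold change -1.03 ± 0.24, SE, edgeR, adjusted p = 1). The value stayed between -1.20 and -0.69 over the alternatives, and DESeq2 gave -1.02 with an adjusted p under the threshold. Pcdh11x had 24.7 and 6.75 CPM in cortex and 3.62 and 8.26 CPM in hippocampus (-1.42 ± 0.88), and Pcdh12 had 28.2 and 18.3 CPM against 17.1 and 14.1 CPM (-0.51 ± 0.38). In the other direction, Cdh5 had 11.5 and 10.9 CPM against 20.4 and 13.4 CPM (0.69 ± 0.45), Cdh26 3.90 and 6.53 CPM against 18.7 and 5.38 CPM (1.36 ± 1.03) and Cdh23 99.9 and 145 CPM against 176 and 119 CPM (0.39 ± 0.32). These 5 were not distinguished from 0 (edgeR, adjusted p = 1 for each), and the sign of Cdh5 and Cdh23 turned in some alternatives. Leaving out cortex replicate 1 brought Cdh17 past the threshold (2.34% of all genes passed), with cortex represented by the 1 library in which it was at 0. By region, 0.0% of 46698 passed, as did none of the 141 in these genes, of which 13 (and 3803 of all regions) had an unadjusted p under 0.05. DESeq2 called 2 of the 141 (0.754% of all regions). In edgeR 12 passed without cortex replicate 1 (6.84%) and 5 without cortex replicate 2 (1.83%), in fits where cortex was a single library assumed to vary as the hippocampal libraries do.

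The intracellular partners of these proteins formed a list of 20 genes, among them catenins and their relatives, the sheddase Adam10, the WAVE complex, Taok2 and Ppp1ca. In the class comparison 2 of 20 passed, near the 8.57% of all genes. They were Abi1 (0.40, edgeR, adjusted p = 0.0129) and Cyfip2 (0.30, adjusted p = 0.0139), 2 of the 7 WAVE complex genes listed, and both were higher in the MGE class. In the Pvalb gate, where 5.21% of all genes passed, Wasf3 (0.42) and Cyfip2 (0.29) rose and Jup (plakoglobin) fell (-0.56). In the Sst gate, with 6.04% of all genes, 1 of the 20 passed, and it was Jup, which rose (0.37, edgeR, adjusted p = 0.042). None of the 20 passed in the Vip gate (3.61% of all genes), the Lamp5 gate (0.31%) or between brain regions (0.00613%).

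Because oligodendrocyte-rule nuclei varied between libraries, the same genes were compared between those nuclei and the other nuclei of each library, a comparison added after the data had been seen. The libraries were cortex replicate 1 (126 such nuclei) and the hippocampal libraries (391 and 311), since cortex replicate 2 held 49. These nuclei summed to 4375134, 2035797 and 3103050 cut sites. The 2229, 5185 and 2873 other nuclei summed to 112914925, 70348723 and 44831219. Cut sites per nucleus were thus fewer under the rule in each of these libraries, and the part of depth in the results was not tested. Of 34 members 13 passed, against 29.1% of 16940 genes, 4 higher and 9 lower in the oligodendrocyte-rule nuclei. Cdh7 had 45.5, 5.85 and 7.15 CPM in these nuclei and 75.7, 30.4 and 38.0 CPM in the others (-1.71 ± 0.33, SE, edgeR, adjusted p = 0.0153). Cdh18 had 61.3, 50.9 and 22.5 CPM against 109, 82.9 and 59.6 CPM (-0.96 ± 0.16, SE, edgeR, adjusted p = 0.00749). Pcdh11x was higher, with 47.5, 12.9 and 30.3 CPM against 27.3, 4.13 and 7.44 CPM (1.45 ± 0.28, SE, edgeR, adjusted p = 0.0113).

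The other members that rose were Cdh10 (0.64), Cdh20 (0.53) and Pcdh1 (0.42), and those that fell were Cdh12 (-1.57), Cdh5 (-1.26), Pcdh18 (-0.84), Cdh4 (-0.79), Pcdh8 (-0.53), Cdh24 (-0.50) and Cdh22 (-0.46). Calls over all genes moved with the library left out, and those of the members with them. Without hippocampus replicate 1 no member passed (0.415% of all genes did), without hippocampus replicate 2 6 members did (20% of all genes) and without cortex replicate 1 20 members did (36.4%). The summed oligodendrocyte list was 269 to 338 CPM in the MGE class and 239 to 353 CPM in the CGE class. Without the oligodendrocyte-rule nuclei, Cdh18 kept a class difference of 0.86, Cdh13 0.37, Cdh7 0.66 and Pcdh11x 0.92, and the brain region difference of Cdh7 was -0.97.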

How the data were processed

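Nuclei were profiled by 10x Genomics single-nucleus ATAC-seq in 4 libraries, 2 per brain region, grouped by their labels. The authors deposited, per library, raw counts of cut sites per peak and nucleus, without normalization, made with Cell Ranger ATAC 1.2.0 on GRCm38/mm10 according to the submitters' processing notes. Peak and nucleus calling had been done library by library, which leaves no counts outside the peaks of the library itself. The number of peaks differed between libraries (61965 to 157220) and did not simply follow depth. Cortex replicate 1, the deepest, had 127726 peaks and hippocampus replicate 1 had 157220. The deposited motif matrices were not used. The aligner settings were not given in the sources used here, and no doublet caller was run.

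Genes came from GENCODE M21. Counts in peaks overlapping a gene body or 2 kb upstream were summed over nuclei, since nuclei of a library are not replicates. Whether the libraries came from separate animals was not stated, so p-values between brain regions measure the spread between these libraries. In comparisons with library as a block, p-values measure how far the differences within libraries vary. Regions were merged peaks (185260), of which 46698 held a peak of every library. A nucleus entered a gate where its count in 1 marker gene, and not in the other 3, had a Poisson upper tail under 0.01. Classes used the summed MGE and CGE marker lists by the same rule. The oligodendrocyte rule used a tail of 0.001. Sums of fewer than 50 nuclei were left out. Sums held 737412 to 11670081 cut sites per gate and 1135787 to 20678618 per class, which limits the precision of low genes.

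Tests were two-sided quasi-likelihood F tests in edgeR 4.0.16 (R 4.3.3) with robust estimates, TMM, filterByExpr, a prior count of 2 and Benjamini-Hochberg adjustment over all genes or regions, at a threshold of 0.05. Brain regions were compared without a block and gates or classes with library as a block. The printed edgeR fold changes were shrunk with the prior count. Each SE was derived from the fold change of the test, which lacked that prior count, and its F statistic. Scripts ran in Python 3.11.15. Tests were also run on simulated counts with the same dispersion for every gene and no library effects. Because these settings differ from the data, that check cannot show how the tests behave here. DESeq2 1.42.0, library totals, no filter, common regions, regions covered by peaks over at least 0.5 of their length in every library, a window of 2 kb around the gene start, other gate tails, single gates, brain regions apart, removal of oligodendrocyte-rule nuclei and leaving out each library were alternatives.

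Named genes were members past the threshold, up to 4 per direction and gate, or the smallest p per direction where none passed, the 3 smallest p per direction for brain regions, and the 3 highest and lowest levels. Up to 2 regions per direction and gate were named. Regions and genes named from the class and oligodendrocyte comparisons were chosen after their values were seen. The members, lists and tests were chosen with earlier results of these data known.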

Additional observations from a re-analysis of the deposited data

How the results depend on the processing

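Of 385 values of single genes under an alternative, 299 kept direction and side of the threshold, 78 kept direction but no longer passed, 2 came to pass and 6 turned. For the 6, between hippocampus and cortex Cdh5 was -0.16 in common regions, -0.53 in regions covered over at least 0.5 of their length (well-covered regions) and -0.49 in the Sst gate only, and Cdh23 was -0.052 in well-covered regions and from -0.049 (without hippocampus replicate 1) to 0.74 (without hippocampus replicate 2). Cdh12 between classes was -0.27 within 2 kb of the gene start. The causes were not tested. The share of all genes or regions called in the same fits is given in brackets. Leaving out 1 library in turn gave 0 to 1 members between brain regions (0.0% to 2.34%), 0 to 4 between paired gates (0.666% to 5.43%), 1 to 3 in the Pvalb gate (0.731% to 5.39%), 1 to 4 in the Sst gate (1.04% to 5.78%), 3 to 4 in the Vip gate (2.97% to 4.72%), 4 to 7 between classes (3.59% to 7.35%), 0 to 3 for the class difference between brain regions (0.0% to 0.748%) and 0 to 20 for the oligodendrocyte rule (0.415% to 36.4%). For member regions it gave 0 to 12 between brain regions (0.0% to 6.84%), 18 to 27 between classes (11.5% to 17.8%), 0 to 13 in the Pvalb gate (1.51% to 8.06%), 2 to 23 in the Sst gate (4.33% to 13.7%), 13 to 17 in the Vip gate (7.27% to 8.89%) and 0 to 2 in the Lamp5 gate (0.221% to 2.06%). Between brain regions an arm left with 1 library was assumed to vary like the other. With DESeq2, 1 member passed between brain regions (1.74%), 1 in the Pvalb gate (2.88%), 0 in the Vip gate (1.72%) and 20 under the oligodendrocyte rule (41.3%), and 2, 9 and 1 member regions between brain regions (0.754%), in the Vip gate (4.62%) and in the Lamp5 gate (0.548%). Within 2 kb of the gene start, 3 members passed between classes (4.09%), 2 between paired gates (0.794%), 0 in the Pvalb gate (1.62%), 1 in the Sst gate (1.07%) and 2 in the Vip gate (0.672%). In common regions 6 passed in the Sst gate (6.52%) and 2 in the Vip gate (3.53%). In cortex libraries only, 5 passed between classes (4.57%) and 2 between paired gates (2.72%). In hippocampus libraries only, 5 passed between classes (5.34%), 1 between paired gates (1.23%), 1 in the Pvalb gate (1.31%), 0 in the Sst gate (1.65%) and 1 in the Lamp5 gate (1.23%). With a gate tail of 0.05, 8 passed between paired gates (8.45%), 5 in the Pvalb gate (7.7%) and 8 in the Sst gate (8.16%). Without the Vip gate 3 passed in the Lamp5 gate (1.35%). Among well-covered regions, 10 member regions passed between classes (18.1%), 7 in the Pvalb gate (8.83%), 8 in the Sst gate (13.1%) and 4 in the Vip gate (8.13%), from fewer regions. The gate tail of 0.001 and the Vip gate alone left too few sums and were not run, and the Vip contrast has no value without cortex replicate 1. The replicate 1 deviations of cortex and hippocampus had a correlation of 0.0242 over 16319 genes. Because the cortex replicates differed strongly in depth, this cannot decide whether the replicate numbers pair the libraries. A fit with the replicate number as a block called 0 members between brain regions, as without the block. Depth limits genes at a few CPM, such as Cdh3 and Cdh17.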
